A study of Rattus norvegicus with 12 samples.

Results

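The genes described here are the axon guidance ligands and receptors on the array: semaphorins, plexins, neuropilins, ephrins, Eph receptors, netrins, the netrin receptors Dcc and Unc5, Slits and Robos. They were chosen by the start of the gene name and not by a measured value, which gave 123 of 41012 probes and 72 of 33212 gene names. Of the 72 names, 70 belong to a guidance family. Unc50 and Unc5cl match the rule by spelling alone and are given apart.

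PC12 cells, a line from a rat adrenal pheochromocytoma, were treated with PACAP38, a neuropeptide after which these cells grow neurites, at 1e-07 M for 5, 10, 15, 30, 60 or 120 min. At each time point the RNA of treated cells and the RNA of control cells, each pooled from n = 6, were compared on 2 arrays with 2 colours and the dyes exchanged. Since the dye exchange used one pair of pools, a time point is 1 replicate, and within it PACAP38 could not be tested against control. The material is 1 cell line, grown on collagen type IV with serum, and no neurons or target tissue were present.

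Axon guidance molecules steer growing neurites by attraction and repulsion. Class 3 semaphorins act through neuropilins and plexins A, other semaphorins bind plexins directly, netrins bind Dcc and Unc5, Slits bind Robos, and ephrins on one cell bind Eph receptors on the next and can signal in both directions. Many of these receptors act on the cytoskeleton of the growth cone through small GTPases.

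The cell line was checked against its markers. Of 14 chromaffin and PC12 genes, 12 were well above background, the scanner software's mark for a spot that stands out from its surroundings, in the control RNA on all 12 arrays. Slc6a2 reached 11 arrays. None of the endothelial, muscle and adrenal cortex markers was well above background in control RNA, while Cd68, Col1a1, Pdgfra and Epcam, listed as markers of other cells, were so on all 12 arrays. Their part in the values below was not tested. The early response genes Fos and Egr1 stood 20.4-fold and 48.6-fold above control at 60 min, on the means of the 2 arrays.

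A partial set of the guidance genes was detected in PC12 cells. Taking the best probe of each gene, 21 of the 72 names were well above background in control RNA on all 12 arrays, 19 on some arrays, 4 only in PACAP38 RNA and 28 in no channel of any array. By probes, 22.8% of the members were well above background on all 12 arrays in control RNA, against 35.3% of all probes, and 52.8% on none, against 45.9%. A gene that was not well above background is not shown to be absent, since a dim probe gives only an upper bound.

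**Figure D1:**
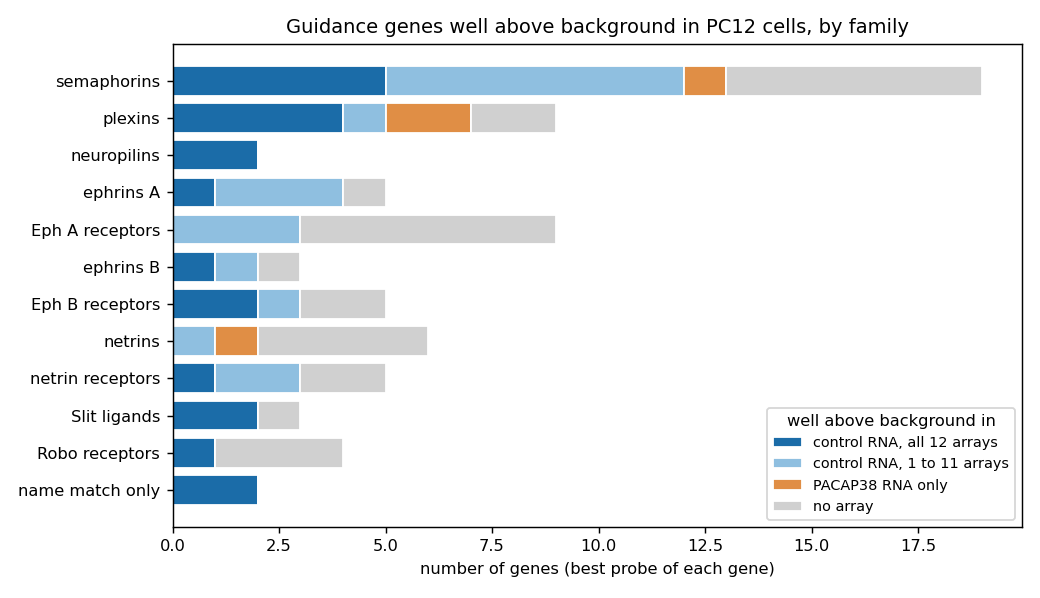
Number of genes of each guidance family (x axis) by where their best probe was well above background: control RNA on all 12 arrays, control RNA on 1 to 11 arrays, PACAP38 RNA only, or no array. Both neuropilins were detected on all 12 arrays, and no Eph A receptor or netrin was.

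The semaphorin receptors and ligands were detected in part. Both neuropilins, Nrp1 and Nrp2, and 3 of the 4 plexins A, Plxna1, Plxna2 and Plxna4, were well above background in control RNA on all 12 arrays, as was Plxnd1, the receptor for Sema3e. Plxna3 was well above background on 1 array in PACAP38 RNA alone. Of the other plexins, none of the 3 plexins B and not the single plexin C was detected in all 12 control channels. None of the 6 class 3 genes taken by name, which encode secreted semaphorins, was detected on all 12 arrays. The array also has 2 probes described as similar to mouse Sema3b but listed under another name, which the rule did not take, and both were well above background in all 24 channels. Of these 6, Sema3f came closest with 11 control channels, Sema3a and Sema3c reached 1, and Sema3d, Sema3e and Sema3g reached none. The transmembrane semaphorins held the rest: Sema4f, Sema4g, Sema5a, Sema6b and Sema6c were detected on all 12 arrays, and Sema6a in 10 control and all 12 PACAP38 channels.

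Slit and Robo genes were present as 2 ligands and 1 receptor. Slit2 and Slit3 and the receptor Robo1 were well above background in both RNAs on all 12 arrays, while Slit1, Robo2, Robo3 and Robo4 were so in no channel. For the netrin system the order was different. Dcc, the receptor for attraction, and Ntn1 were detected in no channel, whereas the repellent receptor Unc5c was detected in all 12 control channels, Unc5b in 11 and Unc5a in 8.

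Ephrins and their receptors were thinly represented. No Eph A receptor among 9 was detected in all 12 control channels, and 6 were detected in none, although the A ephrin Efna3 was detected in all 12 and Efna2 in 11. In the B class, Ephb2, Ephb6 and the ligand Efnb2 were detected in all 12 control channels. Ephb6 is a receptor without kinase activity.

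The 28 names detected in no channel were Sema3d, Sema3e, Sema3g, Sema4b, Sema4c, Sema4d, Plxnb3, Plxnc1, Efna5, Efnb3, Epha1, Epha2, Epha3, Epha5, Epha6, Epha7, Ephb1, Ephb4, Ntn1, Ntn4, Ntn5, Ntng2, Dcc, Unc5d, Slit1, Robo2, Robo3 and Robo4. Sema4d and its receptor Plxnb1 were thus not seen together, Plxnb1 being well above background on 1 array in PACAP38 RNA alone. Those detected in 1 control channel only were Efna4, Efnb1, Epha8, Sema3a, Sema3c and Sema4a. No fold is given for these genes. A further probe described as Epha6, listed under a transcript name and not taken by the rule, was also detected in no channel.

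Where a gene had several probes, what was detected depended on the probe. Of 33 member genes with several probes on 1 chromosome and strand, 17 had probes that differed in the number of the 24 channels well above background. In 13 of the 17 (76.5%) the probe nearest the 3′ end was detected in more channels than every other probe, and in 3 it was detected in fewer than another. Over all genes the share was 57.2%, from 2801 genes whose probes differed. The relation of probe position to detection had no further test here.

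Examples come from plexins and Efnb2. Plxna2 has probes 0, 2042, 5568 and 18449 bases upstream of its most 3′ probe, and these were well above background in 24, 15, 1 and 0 channels. Plxna1 and Plxnd1 each had 1 probe detected in all 24 channels and 1 probe, 4451 and 2427 bases upstream, detected in none. Efnb2, with 24, 7 and 0 channels, and Ephb6, Nrp2 and Sema4g followed the same order. Sema5a was measured by 4 probes in all 24 channels.

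The upstream probes of Plxna1 and Plxna2 lie at like places of these paralogs, and are shown because both were dim while the 3′ probe of each gene was measured on every array. The Plxna1 probe lies at chr4:123397055-123397212 on the minus strand of rn4 and the Plxna2 probe at chr13:110750430-110751164 on the plus strand, spans longer than a probe of 60 bases. Capitals mark the bases shared in the best alignment without gaps, 46 of 58 (79.3%).
Plxna1 probe: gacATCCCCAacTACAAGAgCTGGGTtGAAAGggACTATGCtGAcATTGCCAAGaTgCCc
Plxna2 probe: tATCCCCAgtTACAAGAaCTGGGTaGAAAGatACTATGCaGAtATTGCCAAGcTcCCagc
At 120 min this Plxna2 probe was well above background in PACAP38 RNA on 1 array. Both RNAs were dim on the dye exchange, so no fold is given.

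**Figure D2:**
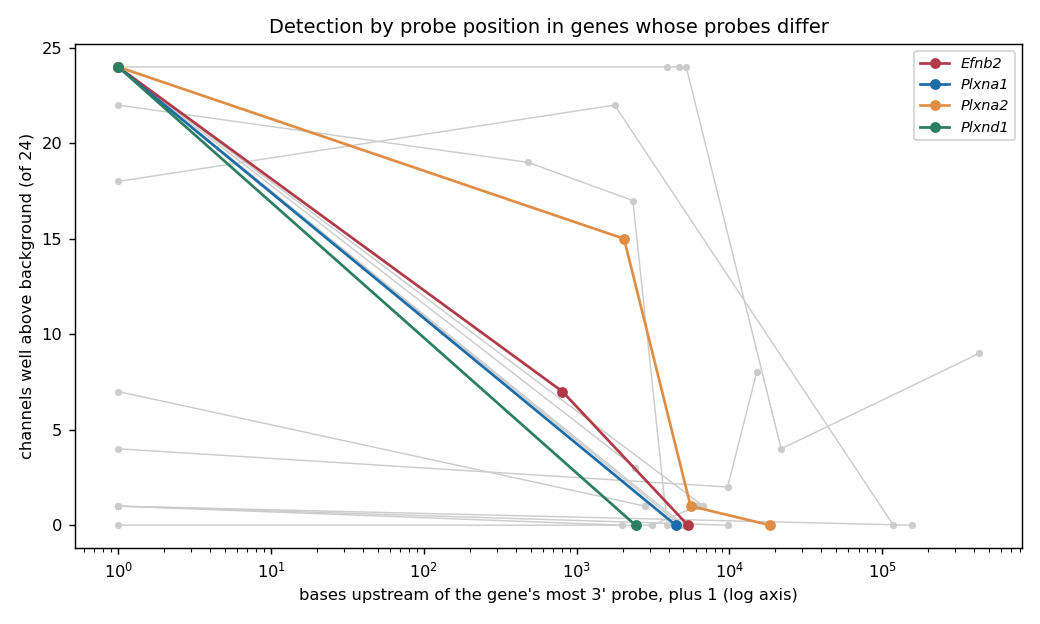
Channels in which a probe was well above background, of 24 (y axis), against the distance of the probe from the most 3′ probe of its gene plus 1 base (log x axis), for the 17 genes whose probes differ. Each line is 1 gene, grey where not named. Plxna1, Plxna2, Plxnd1 and Efnb2 begin at 24 channels at their most 3′ probe and end at 0 at their most upstream probe.

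Few of the guidance genes passed a limit on fold between PACAP38 and control, and those that did were found at 120 min. Counted probes are those whose fold reached 2, or 0.5 and lower, on each of the paired arrays with the same sign, and whose deposited spot p-value was under 0.01 on each. No member was counted at 5, 10, 15, 30 or 60 min. The share of all probes counted in either direction was 0, 0.0658, 0.117, 0.351 and 1.25% at those times. At 120 min, 3 of 123 member probes (2.44%) were counted, against 3.47% of all probes. These were Sema6a and Sema7a among the 1.95% of all probes counted as higher, and Unc5cl among the 1.53% counted as lower.

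Sema7a, a semaphorin anchored in the membrane by a lipid, was counted with control RNA at background. In control RNA its 1 probe was well above background on none of 12 arrays, and in PACAP38 RNA on 3 arrays, of 60 and 120 min. At 120 min its processed intensity was 131 in PACAP38 RNA and 20.5 in control RNA on the array with PACAP38 in Cy5, and 72.0 and 19.3 on the dye exchange. Both arrays thus placed Sema7a above control, by log2 ratios of 2.68 and 1.90. At 60 min the log2 ratios were 2.03 and 1.28, and only the array with PACAP38 in Cy5 showed the probe well above background. The control level is a background value, so the fold at 120 min is a lower bound of at least 3.69-fold. At 60 min the same calculation gave 1.81-fold. It takes in the dye exchange, where both RNAs were dim, so it is no bound. From 5 to 30 min the probe was dim in both RNAs and no fold is given.

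The Sema7a probe lies on rat chromosome 8 at chr8:61734701-61734760 of rn4, plus strand, and is shown because a single probe carries the result; no part of it is marked.
Sema7a probe: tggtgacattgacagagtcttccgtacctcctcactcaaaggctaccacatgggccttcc
The gene's promoter from RefSeq, build GRCr8, covers 250 bases before to 50 after the gene start at chr8:67244068-67244367, plus strand. Capitals mark the single match to TGACG, the shorter form of the cAMP response element (CRE), which stands 6 bases past the first base of the gene.
Sema7a promoter: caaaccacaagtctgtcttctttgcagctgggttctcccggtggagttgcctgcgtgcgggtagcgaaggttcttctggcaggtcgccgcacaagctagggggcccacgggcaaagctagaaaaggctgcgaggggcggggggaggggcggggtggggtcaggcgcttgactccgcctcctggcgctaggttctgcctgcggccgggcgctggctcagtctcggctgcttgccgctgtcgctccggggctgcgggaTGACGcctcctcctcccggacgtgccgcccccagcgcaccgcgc
On either strand, TGACG was found in 21.2% of 33469 promoters of this length and in 10 of 59 (16.9%) promoters of 58 member genes. The full CRE, TGACGTCA, which holds TGACG on both strands, was found in 1.83% of all promoters and in 1 of the 59, that of Epha2. The EGR site GCGGGGGCG was found in 2.73% of all and in 5 member promoters, those of Efna1, Epha1, Epha8, Plxna2 and Plxnb2. The AP-1 site TGANTCA was found in 7.33% of all and in 1 member promoter, and the NBRE, AAAGGTCA, in 1.43% and in none. A match says only that these letters are in the window.

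Sema6a, a transmembrane semaphorin that binds plexins A, was counted by 1 of its 4 probes. This probe, at chr18:41545652-41545711 on the minus strand of rn4, gave intensities of 226 in PACAP38 RNA and 85.7 in control RNA at 120 min, and 225 and 89.0 on the exchange. Its log2 ratios of 1.40 and 1.34 lay close together, and its mean fold was 2.58. The other probes of the gene did not all follow. The brightest Sema6a probe, 2332 bases nearer the 3′ end, gave 0.17 and 0.45 (1.24-fold), the probe 480 bases from that end gave 1.58 and 0.72 with control RNA not well above background on both arrays, and the most upstream probe was dim in all channels. The mean of the 2 Sema6a probes measured in both RNAs was 0.84 on the log2 scale, below the 2-fold limit. At 60 min the counted probe gave 0.35 and -0.05, on opposite sides of 0.

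Unc5cl, which resembles the Unc5 receptors inside the cell but is not known as a netrin receptor, was the only name counted as lower. At 120 min its intensity was 168 in PACAP38 RNA and 430 in control RNA, and 163 and 394 with the dyes exchanged. The Unc5cl log2 ratios of -1.36 and -1.28 gave a mean fold of 0.401, and at 60 min they were -0.05 and -0.48. Its second probe was dim throughout. Unc50, the other name matched by spelling, stayed within a fold of 0.95 to 1.09 at all 6 times.

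These 3 calls rest on the software's background-subtracted signals. With normexp background correction and an offset of 50, which pulls ratios of dim spots to 0, no member was counted at 120 min, while the count over all 41012 probes went from 1425 to 415 with loess and 288 with median centring. The log2 ratio of Sema7a at 120 min became 0.30, that of Sema6a 0.29 and that of Unc5cl -0.56 with loess, each in the same direction as before. Ratios of some members below the limit were nearer 0 too, as for Plxna1 (-0.28 with loess, -0.82 before) and Sema5a (0.20, 0.37 before) at 120 min.

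The measured members were centred near 0. Both RNAs were well above background on both arrays for 38 member probes at 60 min and for 33 at 120 min. Their median log2 ratio was 0.06 at 60 min and 0.07 at 120 min, beside -0.02 for all measured probes at both times. The members spanned -0.60 to 0.74 at 60 min and widened to -1.32 to 1.37 at 120 min. Both arrays had the same sign in 22 of the 38 (57.9%, against 61.1% of all probes) and in 25 of the 33 (75.8%, against 74.1%), with 12 higher and 13 lower.

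The first 30 min showed a narrow spread by comparison. At 5, 10, 15 and 30 min, between 30 and 32 member probes were measured, and their log2 ratios ran from -0.30 to 0.22, from -0.44 to 0.37, from -0.56 to 0.46 and from -0.29 to 0.22. The sign was the same on both arrays for 11 of 31, 13 of 30, 17 of 32 and 9 of 30 of them. Over the 27 member probes measured in both RNAs at every time, the SD of the log2 ratio was 0.12 at 5 min and 0.50 at 120 min, and for all such probes it was 0.13 and 0.61.

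**Figure D3:**
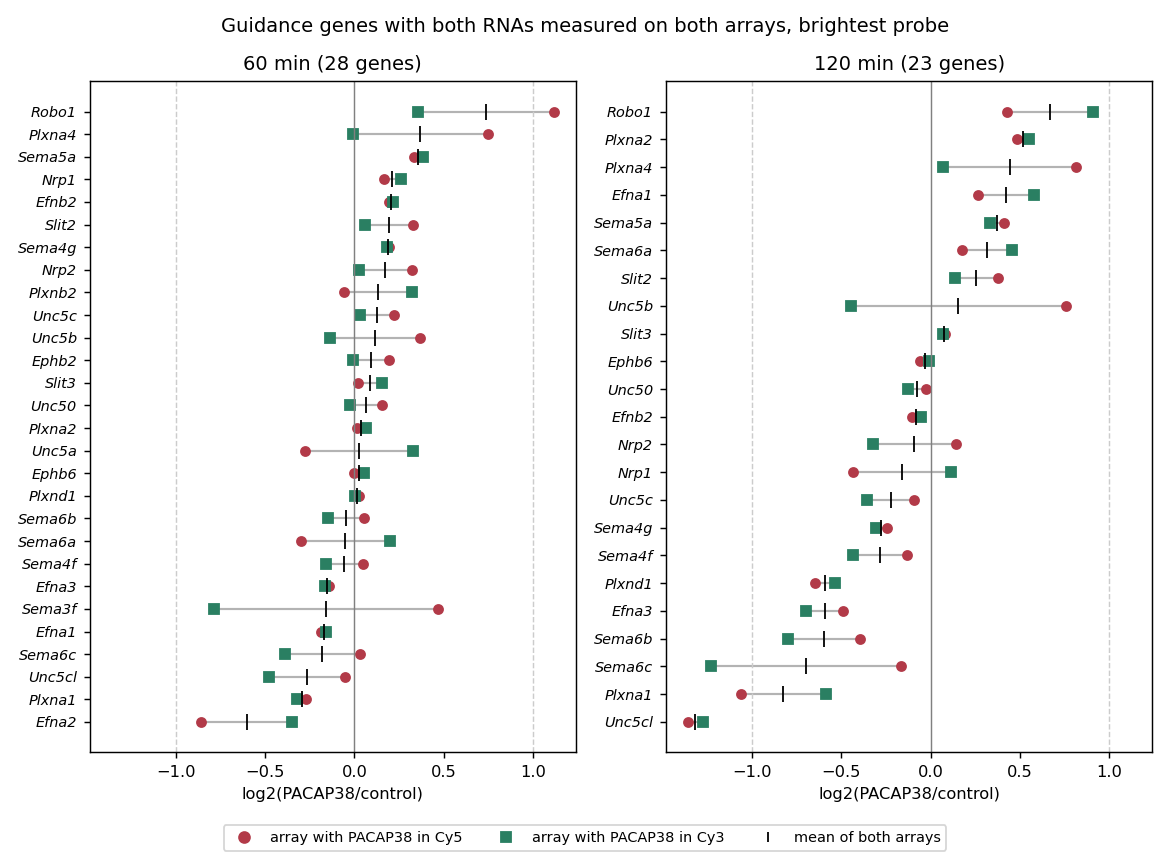
Log2 ratio of PACAP38 to control (x axis) at 60 min for 28 genes and at 120 min for 23 genes whose brightest probe was measured in both RNAs on both arrays, ordered by the mean of the 2 arrays (bar). Dots are the array with PACAP38 in Cy5, squares the dye exchange, and dashed lines a fold of 2. At 120 min Unc5cl lies beyond -1 on both arrays, and Robo1 is at the top at both times by the brightest probe.

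No plexin was counted at 120 min, and the values of those measured are given for their direction on both arrays. Plxna1, a co-receptor for class 3 semaphorins, had log2 ratios of -1.06 and -0.59 at 120 min, after -0.27 and -0.32 at 60 min, with a mean fold of 0.565 at 120 min. Plxnd1 had -0.65 and -0.54 at 120 min (0.664-fold) and 0.02 and 0.00 at 60 min. Both genes were lower on both arrays at 120 min, and neither reached the limit for being counted.

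In the other direction stood Plxna2 and Plxna4, whose products also bind neuropilins. For Plxna2 the log2 ratios were 0.49 and 0.55 at 120 min (1.43-fold), after 0.01 and 0.06 at 60 min. A second Plxna2 probe, 2042 bases upstream, gave 0.13 and 0.76 at 120 min. The 2 measured probes of Plxna2 therefore agreed in direction.

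Plxna4 shows why both dyes are needed. At every time point its array with PACAP38 in Cy5 gave the higher ratio, by 0.35 to 0.97 on the log2 scale. In Cy5 its ratio ran from 0.15 to 0.42 over the 4 times to 30 min and was 0.75 and 0.81 at 60 and 120 min. In Cy3 it ran from -0.68 to -0.19 and then stood at -0.01 and 0.07. Late minus early was 0.51 in Cy5 and 0.52 in Cy3, although the 2 dyes lay on different sides of 0 at most times. Of 27 member probes measured in both RNAs on all arrays, 8 (29.6%) had the same dye on top at all 6 times, against 34.6% of 13943 probes.

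Robo1, the receptor through which Slit2 repels axons, had the highest ratio at both late times among genes whose brightest probe was measured in both RNAs on both arrays. The counted Sema6a probe, which is not the brightest of its gene, was above it at 120 min. The Robo1 log2 ratios were 1.12 and 0.36 at 60 min (1.67-fold) and 0.43 and 0.91 at 120 min (1.59-fold). With normexp and loess its mean log2 ratio was 0.19 at 60 min and 0.18 at 120 min. Up to 15 min its ratios lay between -0.22 and 0.22, and at 30 min they were 0.64 and -0.32. The ligands stayed near control: Slit2 was 1.14-fold and 1.19-fold, and Slit3 1.06-fold and 1.05-fold, at 60 and 120 min.

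Sema5a, a semaphorin with thrombospondin repeats, was measured by 4 probes on all arrays, which gives a view of probe error. At 120 min the mean folds of the 4 were 1.29, 1.56, 1.11 and 1.59, and at 60 min 1.28, 1.32, 1.04 and 1.26. The probe at 1.11 had -0.00 and 0.30 on the log2 scale at 120 min, while the other 3 were above 0 on both arrays. These probes read the same pools and are no replicates of the treatment.

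Sema6b, Sema6c and Efna3 were among the 5 lowest measured genes at 120 min, and none was counted. The log2 ratios were -0.40 and -0.80 for Sema6b (0.661-fold) and -0.17 and -1.23 for Sema6c (0.616-fold). For Efna3 they were -0.49 and -0.70 (0.663-fold), and its second probe gave -0.23 and -1.11. At 60 min Sema6b and Sema6c had opposite signs on the 2 arrays, and Efna3 was at 0.897-fold. Efna1 went the other way, with 0.27 and 0.58 at 120 min (1.34-fold) after -0.19 and -0.16 at 60 min, and its mean log2 ratio at 120 min was 0.06 with normexp and loess. Its control RNA was well above background on 8 of 12 arrays.

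The remaining genes measured on all 12 arrays stayed close to control. At 120 min the folds were 0.895 for Nrp1, 0.939 for Nrp2, 0.946 for Efnb2, 0.977 for Ephb6, 0.822 for Sema4f, 0.825 for Sema4g and 0.856 for Unc5c. The 2 arrays gave opposite signs for Nrp1 (-0.44 and 0.11) and Nrp2 (0.14 and -0.32). At 60 min Nrp1 was 1.16-fold and Efnb2 1.15-fold, both higher on both arrays.

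Across the time course, limma on the dye-averaged log2 ratios of the 6 time points gave 2 tests, each adjusted over 20213 probes of which 50 were members. The slope on log2 time passed an adjusted p of 0.05 for 0.727% of all probes and, of the members, for Sema7a, which entered the fit only through its PACAP38 RNA at the late times. The mean of 60 and 120 min minus the mean of 5 to 30 min passed for 2.93% of all probes and, of the members, for Efna2 and for Sema7a, the latter under the same condition. Without adjustment, 12 members passed for the slope, 6 rising and 6 falling, beside 28.7% of all probes, and 11 for late minus early, beside 25.1%.

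For Sema7a the fitted slope was 0.70 per doubling of time and late minus early 2.26. Its values at 5 to 30 min are background over background, with -1.83 on 1 array of 5 min and 1.61 and -1.26 at 30 min. Since the late rise itself brought the probe into the fit, these estimates are a description with no test, and no fold. Efna2, an ephrin anchored by a lipid, had log2 ratios of -0.86 and -0.35 at 60 min and -0.61 and -0.91 at 120 min. At 120 min the probe was dim in PACAP38 RNA on both arrays. The mean ratio, 1.70-fold lower, is therefore no measured fold and no bound. With normexp and loess the mean log2 ratio was only -0.06. For Efna2 late minus early fell by 0.69 (SE 0.127, limma adjusted p = 0.0493).

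**Figure D4:**
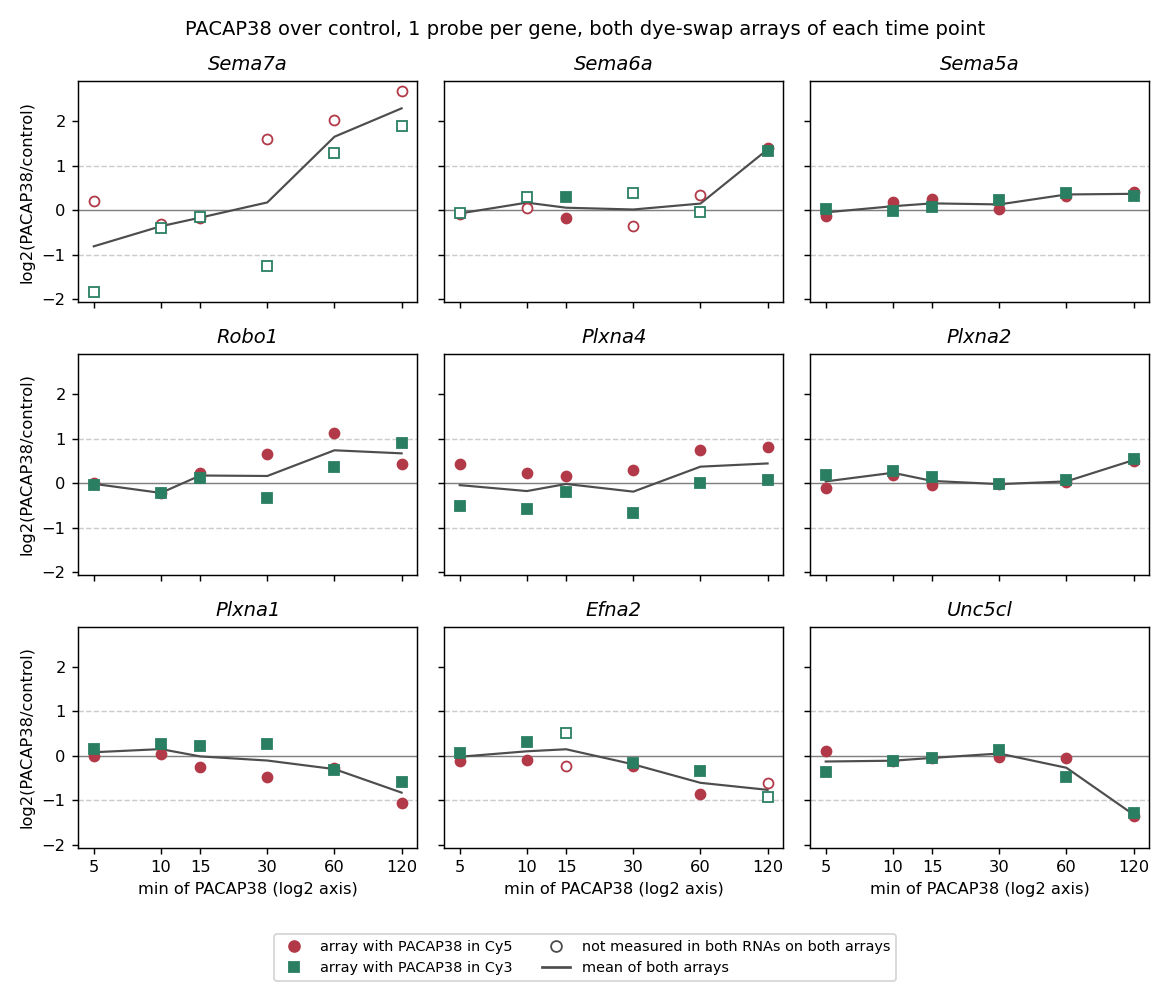
Log2 ratio of PACAP38 to control (y axis) against minutes of PACAP38 (log2 x axis) for 9 genes, with both dye-exchange arrays as points, open where not both RNAs were well above background on both arrays, and their mean as a line. Sema7a has no filled point, and Sema6a and Unc5cl pass a fold of 2, the dashed lines, at 120 min only.

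Next after these came Plxna4 with a late minus early difference of 0.51 (limma adjusted p = 0.0528), Robo1 with 0.68 (limma adjusted p = 0.0617) and Ephb3, a receptor for B ephrins, with -0.93 (limma adjusted p = 0.0852). None of the 3 passed. The 60 and 120 min arrays shared a slide that held no earlier time point, so late times and slide cannot be told apart. Neither adjusted call of late minus early was kept with normexp, and the Sema7a slope was 0.48 with slide as a block (limma adjusted p = 0.894) and passed no more when 10, 15, 30, 60 or 120 min was left out. Without 10, 15 or 120 min no member passed late minus early, and without 5 min none did either, while 15 of 50 did without 60 min, beside 5025 of 20216 probes.

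Some Eph receptors too dim for a ratio on all channels are named after their values were seen. For Ephb3 the log2 ratios were -0.92 and -0.71 at 60 min and -1.07 and -1.19 at 120 min. Their mean at 120 min, 2.19-fold lower, rests on a dim probe and is no measured fold. Epha4, which binds ephrins of both classes, gave -2.39 and -1.94 at 120 min with 1 probe, whose spot p-values were 2.25e-14 and 0.0177, and -1.21 and -2.70 with another, the -1.21 from spots dim in both RNAs. The first of these ratios rests on a control intensity of 541 on 1 array, where the same control pool read 45.6 on the dye exchange, and the -1.94 has PACAP38 RNA dim, so it is no measured fold. Its remaining probe, dim in both RNAs on both arrays, had opposite signs, 0.81 and -1.19. At 60 min the Epha4 probes had opposite signs on the 2 arrays. Epha4 was well above background in at most 4 of 12 control channels, and no probe of it was counted.

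The genes around these receptors were described by a list of 75 pathway genes, such as regulators of small GTPases and adaptors, of which 71 were on the array by name with 134 probes. Of the 71, 49 were well above background in control RNA on all 12 arrays and 15 on none. No probe of the list was counted up to 60 min, and at 120 min 2 were higher and 2 lower, against 1.95% and 1.53% of all probes. Both higher probes were of Rnd1, a small GTPase that binds plexins, whose brightest probe was 2.40-fold higher (2.55 and 2.25) after 1.62-fold at 60 min. The lower probes were of Nck1, an adaptor between guidance receptors and actin, at 0.328-fold (0.313 and 0.344), and of Cxcr4, the receptor of the chemokine Cxcl12. For Cxcr4 the counted probe was the dimmer of 2. Its brightest probe was not counted and had PACAP38 RNA dim at 120 min (0.388 and 0.103 on the 2 arrays), which is no measured fold. Late minus early was 0.98 for Rnd1 (limma adjusted p = 0.0457) and -1.27 for Nck1 (limma adjusted p = 0.0346). Neither passed the slope on log2 time (limma adjusted p = 0.078 for both). Their values under the alternative settings are not given here. The median log2 ratio of the 47 list genes measured at 120 min, by the brightest probe, was -0.15, beside -0.02 for all measured probes. The difference was not tested. After Rnd1, the highest measured list genes were Mical2, a redox enzyme that acts on actin, at 1.92-fold (1.71 and 2.14), and Cfl1, which severs actin filaments, at 1.54-fold. After Nck1, the lowest were Rgmb, a relative of the repulsive guidance molecule, at 0.449-fold (0.391 and 0.516), and the adhesion molecule Cntn2 at 0.516-fold. The folds of Dpysl2, which encodes the semaphorin signalling protein Crmp2, were 1.08 and 0.854 on the 2 arrays at 120 min.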

How the data were processed

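PACAP38 and control RNA of PC12 cells were compared on 12 Agilent rat arrays with 2 colours, 2 per time point and 4 per slide. Feature Extraction (version 12.0.3.1 per the file headers, 11.0.1.1 in the submitters' processing notes) made the deposited processed intensity values, background-subtracted and dye-normalized, the mean and background intensities, and the spot p-value. The deposited table holds the log10 ratio of Cy5 over Cy3 and equalled the processed intensities within 0.001 for 100% of rows, its column medians between -0.0106 and 0.0421.

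Log2 ratios were computed from processed intensities and turned by dye. Control and outlier spots (197 to 267 per array) were left out and spots of a probe averaged, with the median p-value. Between 38.4 and 49.6% of spots were well above background in control RNA, and the small number of arrays limits the precision. A lower bound uses the higher of the dim probe's signal and the lowest signal well above background, on channels scaled by loess and Aquantile; it remains open to dye bias. Of several probes, the brightest gives the gene's value. limma 3.58.1 (R 4.3.3) was fitted to probes with 1 or both RNAs well above background on each array of some time point, was Benjamini-Hochberg adjusted, treats the 6 pools as independent and was tested on simulated data.

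Named genes are those counted, the 5 highest and 5 lowest measured at 60 and at 120 min, those passing a fit, and those measured on all arrays. Members, lists and tests were chosen with earlier results of these data known. The alternatives were normexp (offset 50) with loess or median centring, the deposited ratios, other call rules, single arrays, filters, updated names, the brightest or all probes of a gene, a slide block, minutes in place of log2 time and the omission of single time points. The slide as a random block was added after seeing the data. Positions are of rn4 as in the files, promoters of GRCr8. Proteome data were not used here.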

Additional observations from a re-analysis of the deposited data

Results flagged for a closer look

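Tests of the difference between time points singled out 3 results. For Sema7a, the slope on log2 time of 0.70 and the late minus early difference of 2.26 give no support: the probe entered the fit only through PACAP38 RNA at the late times, with control RNA dim on all 12 arrays and both RNAs dim from 5 to 30 min. Efna2 had a late minus early difference of -0.69, with PACAP38 RNA dim on both arrays of 120 min. Late times and their slide cannot be told apart.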

How the results depend on the processing

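No paired analysis was possible because each dye exchange repeats one pair of pools and the labels number no replicates. The count of members at 120 min, 3, became 0 with normexp and loess, 0 with normexp and median centring, 7 without the p-value limit, and 7 and 9 on the array with PACAP38 in Cy5 or Cy3 alone, as the count over all 41012 probes, 1425, became 415, 288, 1649, 2834 and 3021. Without the p-value limit, 1 member each was counted at 10, 15 and 60 min in place of 0, beside 64, 92 and 641 of all probes. The Cy5 array alone counted 4 members after 5 min of PACAP38, then 1 (10 min), 2 (15 min) and 3 (60 min), beside 666, 832, 815 and 1475 of all probes. The Cy3 array alone counted 2 members after 5 min, then 2 (10 min), 1 (15 min), 1 (30 min) and 2 (60 min), beside 1005, 659, 591, 644 and 1775. Counting any spot as measured gave 123 probes at 60 and at 120 min. The medians moved by less than the spread between dyes under all 42 alternatives, with another sign in some.

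For the slope, members passing went from 1 to 0 with normexp and loess (27 of all probes) or median centring (1). The count was 0 without the filter (0), 0 with slide as a block (0 of all, 944 unadjusted) and 14 with time in minutes (5333). On leaving out a time point it ranged from 0 to 1, as all probes passing ranged from 0 to 153. Where no member passed the slope in limma, 4 to 16 did unadjusted, beside 944 to 6648 of all probes, and 6 to 11 for late minus early, beside 2728 to 4915. For late minus early, 2 became 1 with normexp and loess, 0 with normexp and median centring, 1 with 5 and 10 min alone as early, 1 without the filter and 13 with slide as a random block, whose estimated correlation was -0.51, and ranged from 0 to 15 on leaving out a time point, as all probes ranged from 38 to 5025. All probes passing went from 592 to 1131, 446, 89, 181 and 6150 in that order. The cause was not tested. With normexp and loess the 1 member passing late minus early was Sema5a, and neither Efna2 nor Sema7a was kept. With both RNAs well above background at every time, which tests 27 members, the member counts held but for other genes. These were Plxna1 for the slope, and Robo1 and Plxna4 for late minus early. Of the 13943 probes tested so, 976 passed the slope and 882 late minus early. Updated names added 1 probe of Slit2 and changed no count. Depth of signal limits the dim genes, whose ratios are not measured folds.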
